A study of Homo sapiens with 6 samples.

Results

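The nuclear pore, importin and exportin genes of HCT116 cells are described here with and without a miR-8485 mimic, to set TNPO1 among the other transport receptors and the nucleoporins. Members were chosen by symbol alone: every protein-coding gene whose name began with NUP, KPNA, IPO, XPO or TNPO followed by its number (or T, for XPOT), and KPNB1. The rule found 46 of the 58735 genes listed, of which 19951 were protein-coding, and split them into 22 nucleoporins and 24 transport receptors. NUP42 stood in the table as NUPL2 and so fell outside the rule.

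HCT116 is a human colorectal cancer cell line, described as wild type. RNA-seq was made from 3 control libraries (CTR) and 3 libraries of cells transfected with miR-8485 mimics (miR-8485), as independent biological replicates, and the study's transfection method gives 50 nM of mimic and 48 h. What the control cells received is not stated in the labels. All 7 epithelial markers examined were above 1 FPKM in all 6 libraries (summed level 2739 to 2971 FPKM in CTR and 1863 to 1953 FPKM in miR-8485), and 1 of 7 markers of other cell types was above it, COL1A1 (summed level of those 7 markers 4.32 to 4.55 FPKM in CTR and 6.77 to 6.93 FPKM in miR-8485). The epithelial markers did not move together. KRT8, KRT18, KRT19 and CLDN4 were lower in miR-8485, and CLDN7 was higher (mean 55.2 FPKM in CTR and 73.0 FPKM in miR-8485). EPCAM (135 and 130 FPKM) and CDH1 (19.7 and 19.0 FPKM) changed little. The part of these shifts in the results was not tested. The libraries held 17473874 to 18480047 fragments on listed genes. CTR replicate 1 lay apart from the other CTR libraries, with a chi-square per gene of 8.46 and 10.5 against them, where pairs of replicates without it gave 2.75 to 3.87.

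Nuclear pores are built from nucleoporins: a Y-shaped scaffold complex and an inner ring hold a central channel lined with phenylalanine-glycine repeats, with filaments on the cytoplasmic face and a basket on the nuclear face. Importins, transportins and exportins bind cargo and cross that channel, and the GTPase Ran sets where cargo is taken up and let go. Importin alpha binds classical localization signals and is carried by importin beta (KPNB1), whereas transportins bind their cargo directly.

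The mimic and the seed matches of the members are shown first, since a miRNA pairs with its targets mainly through bases 2 to 8, its seed. The sequence below is the mimic's sense strand, from the study's supplementary methods, with the seed in capitals.

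miR-8485 mimic: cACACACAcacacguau

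The mimic is a CA repeat over most of its 17 bases. The word that pairs with the whole of its seed is TGTGTGT, counted with overlaps on the transcribed strand. Below are windows of 26 bases from 3′ UTRs of canonical transcripts (GENCODE 44, GRCh38), in the direction of transcription, each inside an exon of the named gene, with every unbroken run of alternating T and G of at least 7 bases in capitals. They show the transportins, some members with large falls and some with several copies. KPNA4, KPNA5 and NUP210, which held 7, 6 and 4 copies, are not shown. TNPO1 held 6 copies in a 3′ UTR of 5715 bases, 1 in the first run shown and 5 in the second, at chr5:72909810-72909835 and chr5:72910784-72910809 on the plus strand. TNPO3 (chr7:128954427-128954452, minus strand) and TNPO2 (chr19:12699573-12699598, minus strand) held no TGTGTGT, only a run of 7 bases in the other phase, GTGTGTG. That word pairs with bases 1 to 7 of the mimic, and so with all of its seed but the last base.

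TNPO1 run 1: gatattgtatTGTGTGTaacctgcac
TNPO1 run 2: ttactaTGTGTGTGTGTGTGTtttgt
TNPO2: gggtcttgggGTGTGTGgatggattg
TNPO3: aagagggaggGTGTGTGgagaaaaaa

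KPNB1 held 2 copies (chr17:47682945-47682970 and chr17:47683724-47683749, plus strand), and NUP58 held 3 in separate runs, the first of them at chr13:25340604-25340629 on the plus strand. NUP50 held 1 copy (chr22:45185935-45185960, plus strand), and XPO1 3 copies in a single run (chr2:61478179-61478204, minus strand). IPO5, whose level hardly moved, also held 3, the last of them at chr13:98024054-98024079 on the plus strand. KPNA4 held 7 copies, the most of any member.

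KPNB1 run 1: tgagaatgaGTGTGTGTGagtgaggc
KPNB1 run 2: caaaaaaaaGTGTGTGTtgtgtgaat
NUP58 run 1: acacacagtTGTGTGTGcatataaaa
NUP50 run 1: ggctcccgcGTGTGTGTtctgatctt
XPO1: ttgttttTGTGTGTGTGTGctgtcgc
IPO5 run 3: ggggaaaaaTGTGTGTGgctcttacg

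Levels are FPKM, fragments scaled to gene length and to the library's total, so that a member's value is relative to the rest of its library, and in bulk RNA a loss of expressing cells and a lower level per cell cannot be told apart. Log2 fold changes compare miR-8485 with CTR on log2(FPKM + 0.1), with the standard error (SE) and the two-sided adjusted p of limma (Benjamini-Hochberg over the 12349 genes that averaged 1 FPKM or more). A gene is said to have risen or fallen where that p was under 0.05. Of the 46 members 43 were tested, and 27 of them fell, 2 rose and 14 did not pass. Over all genes tested 30.5% fell and 29.1% rose. The median log2 fold change was -0.26 over the tested members and -0.0041 over all tested genes. The 2 groups of libraries did not overlap for 33 of the 43 members, where 66.5% of all tested genes did so. Without CTR replicate 1 the members gave 31 falls and 1 rise, with a median of -0.32.

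Of 21 nucleoporins tested, 13 fell and 1 rose (median log2 fold change -0.24), and of 22 receptors 14 fell and 1 rose (median -0.30). The summed level of the nucleoporins was 267 ± 8.34 FPKM in CTR and 210 ± 1.62 FPKM in miR-8485, and that of the receptors 567 ± 17.7 FPKM and 402 ± 6.43 FPKM (SD, n = 3). Without KPNA2, the most abundant receptor, the receptor sums were 319 ± 12.9 FPKM and 256 ± 4.99 FPKM, 80.3% of the CTR level against 70.9% with it and 78.6% for the nucleoporins. Members had a median gene length of 7540 bases against 4523 over all tested genes, and after the trend of each library against length was removed 24 fell and 3 rose, with a median of -0.19. After removal of the trend against GC content, a step added after seeing the data, 23 fell and 5 rose, with a median of -0.21. Rescaling to TPM moved the median of all genes to -0.12, and 32 members then fell and 1 rose, with a median of -0.38. Over all 12349 tested genes 4725 then fell and 2613 rose, against 3769 and 3593 in the main fit.

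**Figure D1:**
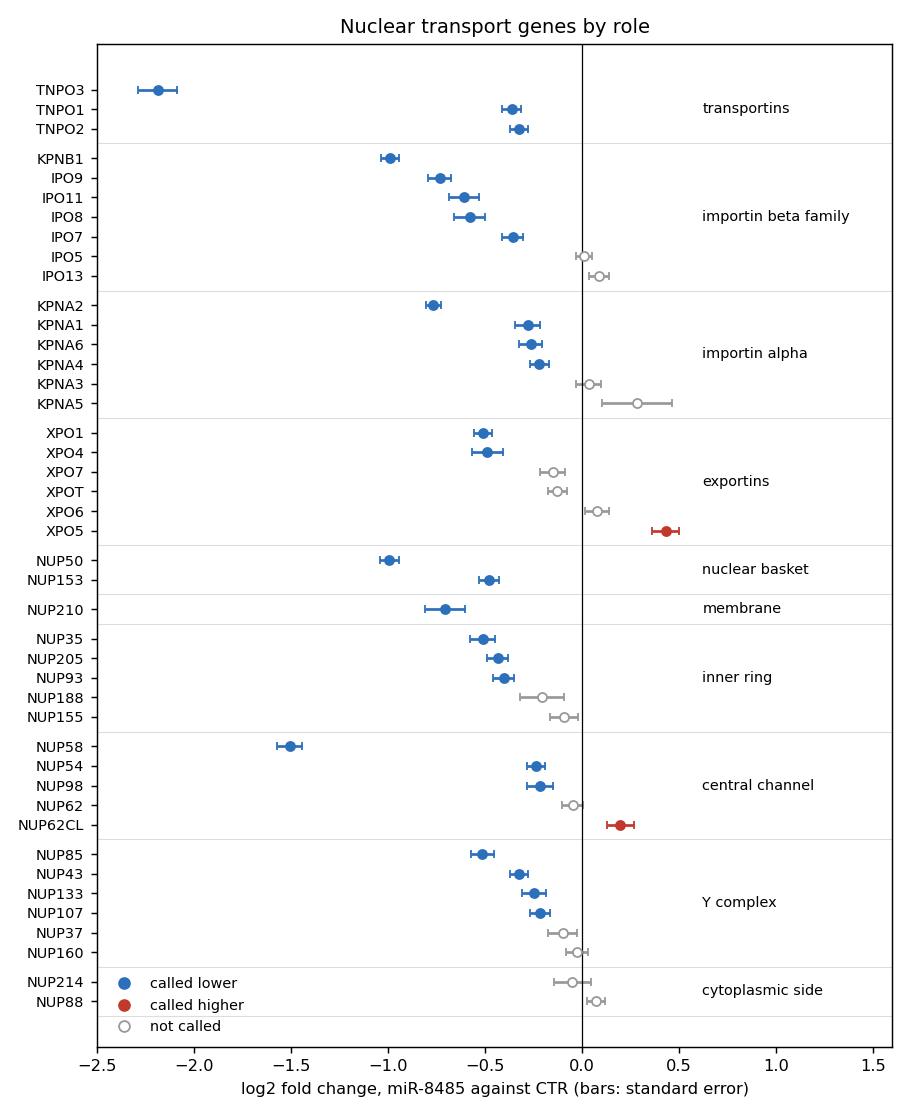
Log2 fold change of miR-8485 against CTR for the 43 tested members (x axis; points, bars are standard errors), grouped by role on the y axis; blue fell, red rose, open grey did not pass the test. TNPO3 at -2.19 and NUP58 at -1.51 lie farthest to the left, TNPO1 and TNPO2 lie together at -0.36 and -0.32, and XPO5 is the one receptor that rose, at 0.43.

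All 3 transportins fell, in the main fit TNPO1 and TNPO2 by similar amounts and TNPO3 by far more. TNPO1 (transportin-1, chr5:72816312-72916733) carries hnRNP proteins and other RNA-binding cargo into the nucleus. Its level was 13.1, 13.4 and 12.6 FPKM in CTR and 9.86, 9.98 and 10.5 FPKM in miR-8485. Every miR-8485 library was lower than every CTR library, and the mean level was 77.6% of that of CTR. The log2 fold change was -0.36 (SE 0.05, limma adjusted p = 0.000608), the 17th largest fall among the 43 members and the 9th among the 22 receptors. It was -0.22 both without the length trend and without the GC trend, and TNPO1 fell under every alternative (highest limma adjusted p = 0.0066).

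TNPO2, the close relative of TNPO1, gave 13.8, 13.7 and 14 FPKM in CTR and 10.9, 11.4 and 10.7 FPKM in miR-8485. These groups also stood apart, with a log2 fold change of -0.32 (SE 0.05, limma adjusted p = 0.000817). In CTR the level of TNPO2 was above that of TNPO1 in each library, and TNPO1 in turn overlapped with NUP88 (13.1, 13.0 and 12.6 FPKM).

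TNPO3 (chr7:128954180-129055173), which imports serine- and arginine-rich splicing factors, had the largest fall of any member. It measured 17.4, 20.5 and 20.5 FPKM in CTR against 4.79, 3.85 and 3.99 FPKM in miR-8485. The highest miR-8485 library was far below the lowest CTR library, and the mean was 21.6% of that of CTR. The log2 fold change was -2.19 (SE 0.10, limma adjusted p = 5.15e-06), and the highest adjusted p under any alternative was 0.000103.

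Within each library the log2 level of TNPO1 was compared with those of its relatives. TNPO1 minus TNPO2 averaged -0.08 in CTR and -0.12 in miR-8485, a change of -0.04 (SE 0.06) that was within the spread of the libraries (exact permutation test, two-sided, p = 0.6, adjusted over 2 comparisons 0.6). TNPO1 minus TNPO3 went from -0.57 in CTR to 1.25 in miR-8485, a change of 1.82 (SE 0.14, exact permutation p = 0.1, adjusted 0.2). Here all libraries of one group lay beyond those of the other, and 0.1 is the smallest p that 3 against 3 allows. TNPO3 thus passed from the highest of the transportins to the lowest. Its share of their summed FPKM was 39.3, 43.2 and 43.5% in CTR and 18.7, 15.3 and 15.8% in miR-8485. The sum itself went from 46.4 ± 1.73 to 25.3 ± 0.215 FPKM (SD, n = 3).

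**Figure D2:**
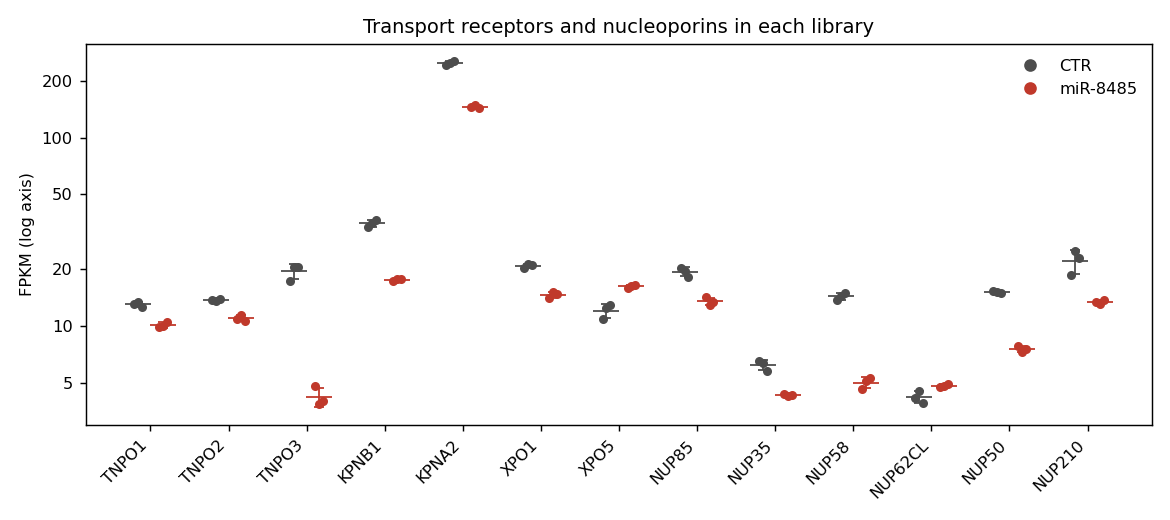
FPKM in each library on a log axis for the transportins, KPNB1 and, in each other role, the members with the largest fall and the largest rise that passed the test; points are the 3 libraries of a group, horizontal marks the mean and bars the SD. CTR and miR-8485 points do not overlap for any gene shown, and only XPO5 and NUP62CL are higher in miR-8485.

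Of the 7 tested importins of the beta family, 5 fell and 2 did not pass. KPNB1, the carrier of importin alpha, gave 33.6, 35.3 and 36.4 FPKM in CTR and 17.4, 17.7 and 17.8 FPKM in miR-8485. The CTR libraries were all about 2 times higher, the mean of miR-8485 being 50.2% of that of CTR, and the log2 fold change was -0.99 (SE 0.05, limma adjusted p = 5.28e-06). IPO9, an importer of histones, fell by 0.73 on the log2 scale, IPO11 by 0.61, IPO8 by 0.58 and IPO7 by 0.36. IPO11 shares 15.8% of its annotated exon bases with LRRC70 on the same strand, and the part of this overlap in its level was not tested. For IPO7 the change was -0.21 without the GC trend. IPO5, which carries ribosomal proteins among its cargo, was the fourth most abundant member in CTR and did not pass, at 27.3 to 28.4 FPKM in CTR and 27.5 to 28.4 FPKM in miR-8485. IPO5 was higher without the length trend (log2 fold change 0.13, limma adjusted p = 0.0201) and without the GC trend (0.11, adjusted p = 0.0421). IPO13, which works in both directions, did not pass at 0.09, although its groups did not overlap.

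Importin alpha genes were dominated by KPNA2, the most abundant of all members. KPNA2 measured 243, 249 and 253 FPKM in CTR and 146, 148 and 144 FPKM in miR-8485. No library of either group came near the other group, and KPNA2 fell by 0.77 on the log2 scale (SE 0.04, limma adjusted p = 6.77e-06). KPNA1 (-0.28), KPNA6 (-0.26) and KPNA4 (-0.22) also fell. Of these, KPNA1 did not pass without the GC trend (-0.16, limma adjusted p = 0.0723), and KPNA4 passed neither without the length trend (-0.11, adjusted p = 0.0875) nor without the GC trend (-0.09, adjusted p = 0.135). KPNA3 (0.04) and KPNA5 (0.28) did not pass, KPNA5 being the lowest of the tested members at 0.929 to 1.43 FPKM in CTR and 1.40 to 1.54 FPKM in miR-8485. The log2 fold change of KPNA5 was 0.13 without CTR replicate 3 and 0.41 without CTR replicate 1, passing in neither case. In voom on the recovered fragments KPNA5 did pass, at 0.32 (adjusted p = 0.0375), as did KPNA3 without the GC trend, at 0.17 (limma adjusted p = 0.0446).

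The make-up of the import receptors changed with these levels. The summed importin alpha level went from 306 ± 6.17 FPKM in CTR to 199 ± 4.41 FPKM in miR-8485 (SD, n = 3), 65.0% of the CTR level. KPNA2 made up 80.8 to 81.5% of that sum in the CTR libraries and 72.9 to 74.6% in the miR-8485 libraries. The ratio of summed importin alpha to KPNB1 was 8.54 to 8.90 in CTR and 11.1 to 11.5 in miR-8485. These shares and ratios follow from the levels above and were not tested.

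**Figure D3:**
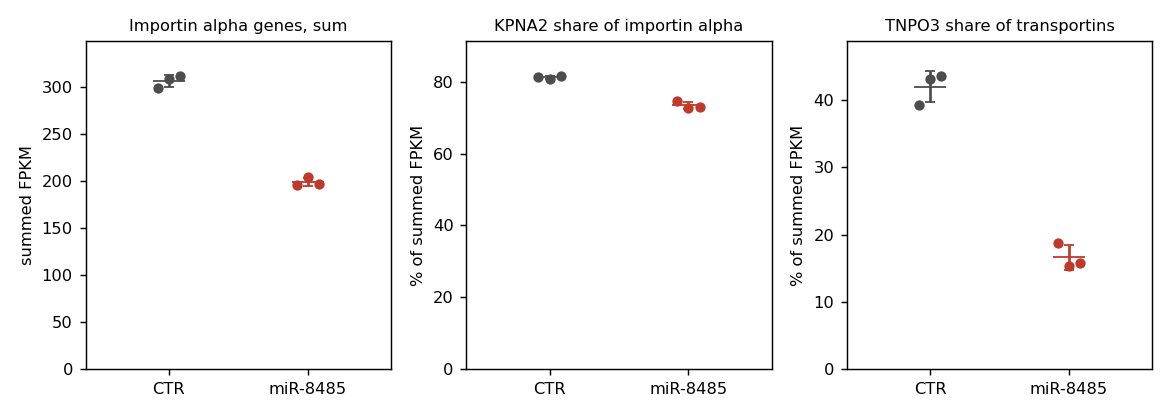
Summed FPKM of the importin alpha genes, the share of KPNA2 in that sum and the share of TNPO3 in the summed transportins (y axes from 0), for each library of CTR and miR-8485; horizontal marks are means and bars the SD (n = 3). The importin alpha sum lies at 299 to 311 FPKM in CTR and 196 to 204 FPKM in miR-8485, and the TNPO3 share at 39.3 to 43.5% and 15.3 to 18.7%.

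Exportins did not move together: of 6 tested, 2 fell, 1 rose and 3 did not pass. XPO1 (CRM1), the exporter of proteins with leucine-rich signals, gave 20.4, 21.2 and 21.2 FPKM in CTR and 14, 15.1 and 14.9 FPKM in miR-8485. The groups were well separated, with a log2 fold change of -0.51 (SE 0.05, limma adjusted p = 9.04e-05). XPO4 fell by 0.49. XPO5, which carries precursor miRNAs to the cytoplasm, was the exception among the receptors. Its level was 10.9, 12.5 and 12.9 FPKM in CTR and 16, 16.4 and 16.4 FPKM in miR-8485. All miR-8485 libraries were higher, and the log2 fold change was 0.43 (SE 0.07, limma adjusted p = 0.00128, and at most 0.00632 under any alternative).

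XPO7 (-0.15) and XPOT, the tRNA exporter (-0.13), did not pass, although neither had overlapping groups. Both passed once CTR replicate 1 was left out, XPO7 at -0.20 (limma adjusted p = 0.0255) and XPOT at -0.16 (adjusted p = 0.0242), and both passed after rescaling to TPM (-0.27 and -0.24). Without CTR replicate 2 the log2 fold change of XPO7 was -0.10, and it did not pass. XPO6, which exports actin, did not pass at 0.08 and passed without the length trend at 0.15 (adjusted p = 0.0453). With 1 library left out, the log2 fold change of XPO6 ran from 0.015, without CTR replicate 1, to 0.12, without CTR replicate 3, and did not pass.

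On the nuclear side of the pore both members placed in the basket, each with a NUP symbol, fell. NUP50, which binds importin alpha and helps it to let go of cargo, measured 15.3, 15.2 and 14.9 FPKM in CTR and 7.83, 7.26 and 7.58 FPKM in miR-8485. Each group was tight and the levels differed by a factor of about 2 (log2 fold change -0.99, SE 0.05, limma adjusted p = 6.62e-06). NUP153, the other basket member, fell by 0.48. Neither of the 2 members of the cytoplasmic face passed: NUP214 was at -0.05 and NUP88 at 0.07. NUP88 shares 31.7% of its annotated exon bases with RABEP1 on the opposite strand, and passed without the GC trend at 0.13 (adjusted p = 0.0347).

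Of the 5 members placed in the central channel by symbol alone, 3 fell and 1, NUP62CL, rose. NUP58, one of the repeat proteins that line the channel, had the second largest fall of all members, from 13.8, 14.4 and 15.1 FPKM in CTR to 4.66, 5.09 and 5.32 FPKM in miR-8485. The highest miR-8485 library was far below the lowest CTR library (mean 34.8% of that of CTR), and the log2 fold change was -1.51 (SE 0.07, limma adjusted p = 4.03e-06). Its partners in the same channel complex moved less, as NUP54 fell by 0.24 and NUP62 did not pass at -0.05. NUP54 did not pass without the GC trend (-0.10, adjusted p = 0.0946).

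NUP98 fell by 0.22 (limma adjusted p = 0.0236). With 1 library left out, the log2 fold change of NUP98 ran from -0.28, without CTR replicate 1, to -0.16, without CTR replicate 3. The call was not stable. It was lost without CTR replicate 2 (adjusted p = 0.0673), CTR replicate 3 (0.0728) or any 1 of the miR-8485 replicates (0.0524 to 0.0719), and also without a filter, under quantile normalization and without the length trend. NUP62CL, a gene related to NUP62, gave 4.16, 4.53 and 3.94 FPKM in CTR and 4.74, 4.83 and 4.92 FPKM in miR-8485. The groups did not overlap, but the gap was small, and the rise of 0.20 (SE 0.07, limma adjusted p = 0.0411) was lost without CTR replicate 1 (adjusted p = 0.0832), CTR replicate 3 (0.122) or any of the miR-8485 replicates (0.0742 to 0.112), in voom, with the replicate number as a block (0.0623), without a filter, after rescaling to TPM and without the length trend.

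Of the 6 members placed in the Y complex of the scaffold, all with a NUP symbol, 4 fell. The largest fall among these 6 was that of NUP85, at 20.4, 19.7 and 18.2 FPKM in CTR and 14.2, 13.0 and 13.5 FPKM in miR-8485. Its groups were separate (log2 fold change -0.51, SE 0.06, limma adjusted p = 0.00025). NUP43 fell by 0.32, NUP133 by 0.25 and NUP107 by 0.22, whereas NUP37 (-0.10) and NUP160 (-0.03) did not pass. NUP107 did not pass without the length trend (-0.12, adjusted p = 0.107) or the GC trend (-0.10, adjusted p = 0.135).

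In the inner ring 3 of 5 fell. NUP35, which anchors the ring to the membrane, went from 6.51, 6.41 and 5.76 FPKM in CTR to 4.39, 4.28 and 4.32 FPKM in miR-8485. All miR-8485 libraries were lower, with a log2 fold change of -0.51 (SE 0.07, limma adjusted p = 0.000406). The large scaffold proteins NUP205 and NUP93 fell by 0.44 and 0.40. NUP188 (-0.21) and NUP155 (-0.09) did not pass, and both were low in CTR replicate 1, NUP188 at 18 FPKM there against 23.7 and 23.9 FPKM in the other CTR libraries. Without that library NUP188 passed at -0.34 (adjusted p = 0.00334) and NUP155 at -0.17 (adjusted p = 0.0246). Without CTR replicate 3 the log2 fold change of NUP188 was -0.14 and the log2 fold change of NUP155 was -0.05, and neither passed.

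Of the membrane members only NUP210 was tested. It measured 18.6, 25.0 and 22.9 FPKM in CTR and 13.4, 13.2 and 13.8 FPKM in miR-8485. The CTR libraries were spread widely, yet all were above the miR-8485 libraries (log2 fold change -0.71, SE 0.10, limma adjusted p = 0.000773). NUP210L, its relative, had 5 to 14 fragments in the CTR libraries and 6 to 9 in the miR-8485 libraries. IPO4 had 6 to 17 and 5 to 18, and KPNA7 0 to 2 in both groups. At this depth no difference was detectable for these 3, and IPO4 also shares 68.7% of its exon bases with a readthrough gene on the same strand, for which the assignment of shared fragments is not given in the sources used here.

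The seed matches were then set beside the changes. TGTGTGT lay in the 3′ UTR of 17 of the 43 tested members (39.5%) and of 28.9% of the 10671 tested genes with a 3′ UTR. Of the 17 members with a copy 11 fell and 6 did not pass (median log2 fold change -0.36), and of the 26 without a copy 16 fell and 2 rose (median -0.26). Over all tested genes 44.5% of those with a copy fell (median -0.16), and 29.3% of those without (median 0.02). The median 3′ UTR was 1534 bases in the members and 1287 bases over all genes. Counts were made on canonical transcripts, and the longest annotated 3′ UTR also gave 17 members. Which 3′ UTRs are used in HCT116 was not measured.

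The members with the most copies were not those with the largest falls. KPNA4, with 7 copies, changed by -0.22, TNPO1, with 6, by -0.36, and KPNA5, with 6, by 0.28. NUP210, with 4, fell by 0.71. NUP58, XPO1 and IPO5 all held 3 and stood at -1.51, -0.51 and 0.0094. TNPO3 and KPNA2, at -2.19 and -0.77, held no TGTGTGT. In the other phase, the word GTGTGTG, which pairs with bases 1 to 7 of the mimic, was added after seeing the data. It was in 22 members (51.2%) and in 24.4% of tested genes. TNPO3 and TNPO2 held 1 copy each, and KPNA2 held none. ACACACG, a word inside the mimic, was in 1 member, NUP50 (2.33%), and in 4.01% of tested genes. A match is a word in the annotated sequence, and binding was not measured.

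**Figure D4:**
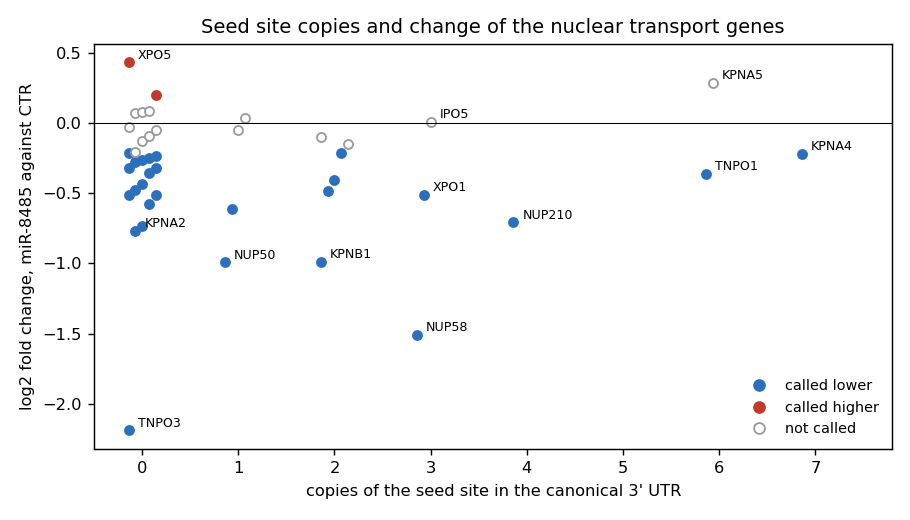
Copies of TGTGTGT in the canonical 3′ UTR (x axis; points are shifted slightly sideways to separate them) against the log2 fold change of miR-8485 against CTR (y axis) for the 43 tested members; blue fell, red rose, open grey did not pass. TNPO3 lies lowest with 0 copies, and the members with 6 or 7 copies lie between -0.36 and 0.28.

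Other genes of the pathway were taken as 3 lists by role, chosen with earlier results of these data known. Together 38 of 39 were tested, and 12 fell (31.6%) and 8 rose (21.1%), where 30.5% of all tested genes fell and 29.1% rose. Of the nucleoporins whose symbols lack NUP, 6 of 11 fell (54.5%) and 1 rose (median -0.15). RANBP2, on the cytoplasmic face, was only just among the falls, at -0.15 (limma adjusted p = 0.0496). Its call did not hold under all alternatives (highest limma adjusted p = 0.845). The largest fall was that of AAAS (ALADIN, a pore protein), by 0.59, and the rise was that of GLE1, which activates the export helicase DDX19 at the cytoplasmic face, by 0.72 (11.3 to 12.2 FPKM in CTR and 19.2 to 19.4 FPKM in miR-8485). The near-identical copies POM121 and POM121C were at -0.02 and 0.04 and did not pass. The other falls in this list were those of AHCTF1 (-0.57), RAE1 (-0.29), NDC1 (-0.27) and TPR (-0.20). TPR and NDC1 did not pass under all alternatives (highest limma adjusted p = 0.370 and 0.0782). SEC13 (-0.06) and SEH1L (-0.14) did not pass.

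In the Ran cycle and its adaptors 3 of 10 tested genes fell and 1 rose (median -0.10). CSE1L, the exportin that returns importin alpha to the cytoplasm, fell by 0.22, but not without the GC trend (-0.09, limma adjusted p = 0.0767). NUTF2, which brings Ran into the nucleus, rose by 0.43. In the mRNA export list 6 of 17 rose (35.3%) and 3 fell (17.6%), with a median of 0.10, from DDX39A, an RNA helicase, at -0.63 to THOC7, a subunit of the THO complex, at 0.55.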

How the data were processed

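RNA-seq of 3 CTR and 3 miR-8485 libraries of HCT116 cells was used, grouped by the labels. After fastp trimming the authors aligned the reads to hg38 by HISAT2 2.0.5, counted fragments with featureCounts 1.5.0-p3 and deposited FPKM values, which are scaled to gene length and library total only. Their counts were tested by the authors with DESeq2. The annotation release, the strand setting and the handling of fragments shared between copies are not given in the sources used here.

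In all libraries 100% of values were whole multiples of 1 fragment (tolerance 0.1), so fragments were recovered. The chi-square per gene between replicates was 2.75 to 10.5, above counting error, and so the spread between libraries, not depth alone, set the precision.

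The 12349 genes averaging 1 FPKM or more were tested with limma 3.58.1 in R 4.3.3 (variance trend, Benjamini-Hochberg, adjusted p under 0.05) on log2(FPKM + 0.1), which understates changes of low genes. Scripts were tested on simulated data. There the main fit recovered 87 of 96 changes of 1 on the log2 scale, but only 26 of 98 changes of a single smaller size. Voom recovered 59 of those 98. The simulation changed 194 of 12421 genes, with a spread set in advance. In the real libraries 30.5% of tested genes fell and 29.1% rose, so the simulated recovery rates need not hold for the members. A member that did not pass is still not shown to be unchanged. Transportins were compared by exact permutation in scipy 1.17.1 (Python 3.11.15). 3′ UTRs came from GENCODE 44 (GRCh38).

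Members and lists were chosen with earlier results of these data known. By rule, values in all libraries are given for the TNPO members, KPNB1 and, in each role, the members with the largest fall and rise that passed, and the extremes of each further list are named. GLE1's levels, RANBP2, POM121, POM121C, AHCTF1, RAE1, NDC1, TPR, SEC13 and SEH1L were added after their values were seen. So were the levels of IPO5, KPNA5, NUP88, NUP188 and the untested members. Alternatives were voom on recovered fragments, pseudocounts of 1 and 0.01, no filter and a filter of 5 FPKM, median-of-ratios scaling, quantile normalization, TPM, removal of the length or GC trend (the last chosen after seeing the data), no variance trend, the replicate number as a block and each library left out in turn.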

Additional observations from a re-analysis of the deposited data

How the results depend on the processing

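TNPO1, TNPO2, TNPO3, KPNB1, KPNA2, XPO1, XPO5, NUP85, NUP35, NUP58, NUP50 and NUP210 kept their direction and their call under all alternatives. So did IPO7, IPO8, IPO9, KPNA6, NUP43, NUP93, NUP133, NUP153 and NUP205. IPO11 and XPO4 did so in every alternative that tested them. Counts of members that fell ran from 23 to 32 over all settings, against 27. The number that rose, 2, was 1 without a filter, with a filter of 5 FPKM, after rescaling to TPM and with the replicate block, and 5 without the GC trend, a step chosen after seeing the data. For nucleoporins, 1 of which rose, this number was 0 in voom, without a filter, with the filter of 5 FPKM, after rescaling to TPM, without the length trend and with the replicate block, and 2 without the GC trend. For receptors, also 1, it was 2 in voom and 3 without the length or the GC trend. Of the further transport genes, 12 fell, against 19 after rescaling to TPM and 7 without the GC trend. Over all tested genes the falls in these settings numbered 3769, 4725 and 3685. The log2 fold change of TNPO1 minus that of TNPO3, 1.82, was 1.64 with a pseudocount of 1. With 1 library left out, members that rose numbered 1 to 2 and nucleoporins that rose 0 to 1, and members that fell 26 to 31.

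Some members that did not pass changed sign. Without the length trend NUP155 was at 0.018, NUP214 at 0.091, NUP62 at 0.0041 and NUP160 at 0.077. Without the GC trend NUP37 was at 0.038 and NUP160 at 0.044, and under quantile normalization NUP160 was at 0.020. After rescaling to TPM IPO5 was at -0.11, KPNA3 at -0.080, NUP88 at -0.043, XPO6 at -0.037 and IPO13 at -0.026. With 1 library left out, the log2 fold change of NUP214 ran from -0.11 to 0.030, the log2 fold change of NUP62 from -0.083 to 0.00033 and the log2 fold change of NUP160 from -0.070 to 0.013, each highest without CTR replicate 3. The log2 fold change of IPO5 ran from -0.0053, without CTR replicate 1, to 0.024, and the log2 fold change of KPNA3 from -0.014, without miR-8485 replicate 2, to 0.089. NUP188 passed in voom, after rescaling to TPM and with the replicate block, and NUP155 and NUP62 after rescaling to TPM. The cause of these shifts was not tested.

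The replicate numbers did not pair the libraries: deviations of same-numbered libraries from their group means correlated at 0.07, 0.03 and -0.06, and the replicate block gave 28 members that fell and 1 that rose. The FPKM of NUP210L, IPO4 and KPNA7 rests on few fragments. For IPO4 the assignment of fragments shared with the readthrough gene is not given, and its part in the low count was not tested.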
